A study of Mus musculus with 6 samples.

Results

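Complement and coagulation are the plasma protease systems of defence and clotting, and 55 of their genes were followed in liver RNA, as a list of named complement components, complement regulators, clotting factors and fibrinolysis genes. Of these, 54 stood in the deposited table of 14669 rows, and Cfd was not analysed here. The libraries came from livers of wild-type (WT) male C57BL/6J mice, 8 weeks old. Each mouse had been given plasmid (25 µg, in 2.5 ml saline) by hydrodynamic injection, a rapid large-volume injection into a vein that brings DNA mainly into hepatocytes. In the scramble group (libraries Sc3, Sc4 and Sc5) the plasmid was plko-scramble, a control hairpin. In the shBicd2 group (sh1, sh3 and sh6) it was plko-shBicd2, a hairpin against Bicd2, an adaptor of the dynein motor. On day 3 both groups were given concanavalin A (ConA) at 15 mg/kg into a vein, and liver was collected at 6 h. This lectin activates T cells and brings on acute hepatitis. No library without ConA is among the samples, so the values compare the plasmids during hepatitis. Nothing in the labels says that each library is a separate animal, and the p-values measure the spread between these libraries, which may be technical.

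Hepatocytes make most of the circulating complement and clotting proteins, as inactive zymogens. Complement starts when C1q, mannose-binding lectins or the alternative pathway engage a surface. Convertases then cleave C3 and C5, and C5b to C9 form a pore, while the released C3a and C5a act on receptors of myeloid cells. Clotting starts when tissue factor (F3), which plasma normally does not meet, binds factor VII, and it ends when thrombin turns fibrinogen into fibrin. Thrombomodulin (Thbd) on endothelium redirects thrombin to activate protein C, and plasmin dissolves the clot. Several of the genes act on cells other than hepatocytes: C1q and properdin come from macrophages and other myeloid cells, and von Willebrand factor and thrombomodulin from endothelium. In whole liver, fewer cells of a type and less RNA per cell cannot be told apart.

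Recovered depth ran from 16032380 to 18929660 counted reads per library, taken from the steps in the values. Bicd2 itself was at 4.14, 3.43 and 3.13 (scramble) against 3.61, 2.57 and 2.97 FPKM (sh1, sh3, sh6), and the groups overlapped (exact two-sided permutation p = 0.4). The label "shBicd2" therefore names the plasmid and not a measured knockdown. Among the 10152 genes averaging 1 FPKM or more, limma on log2(FPKM + 1) called 0% at an adjusted p of 0.05, and 15.7% (1593 genes) lay at an unadjusted p below 0.05. Limma-voom on the recovered reads also called 0. Libraries sh1 and sh3 stood apart. Sh1 was the highest of the 6 libraries for 34.1% and the lowest for 28.8% of the tested genes. Sh3 was the highest for 6.98% and the lowest for 33.9%.

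For 40 of the 54 genes the values of the groups overlapped, and a few low-level genes lay lower in all 3 shBicd2 libraries. These were F3, Thbd, the urokinase receptor Plaur, the C5a receptor C5ar1, factor XIII A (F13a1) and, below the filter for testing, Vwf. Factor B (Cfb) and the C1 proteases C1ra and C1s1 lay lower as well. The plasma proteins protein C (Proc), protein Z (Proz), fetuin A (Ahsg), vitronectin (Vtn) and C8g lay higher. None of the 50 tested members passed an adjusted p of 0.05 (limma, smallest 0.152, for F3), and 9, or 18%, had an unadjusted p below 0.05 (6 lower, 3 higher in shBicd2), against 15.7% of all tested genes. At that unadjusted p, 12.7% of all tested genes lay lower and 2.97% higher. Groups did not overlap for 13 of the 50 tested members, or 26%, against 24.4% of all tested genes. All shBicd2 values lay below scramble for 8 of the 50, against 18.7% of all tested genes, and above it for 5, against 5.7%. The share with groups apart was near that of all genes and is no result about the list. The median log2 fold change of the members was -0.05, against -0.06 over all tested genes, and 19 members were positive and 31 negative, against 41.4% positive over all tested genes.

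**Figure D1:**
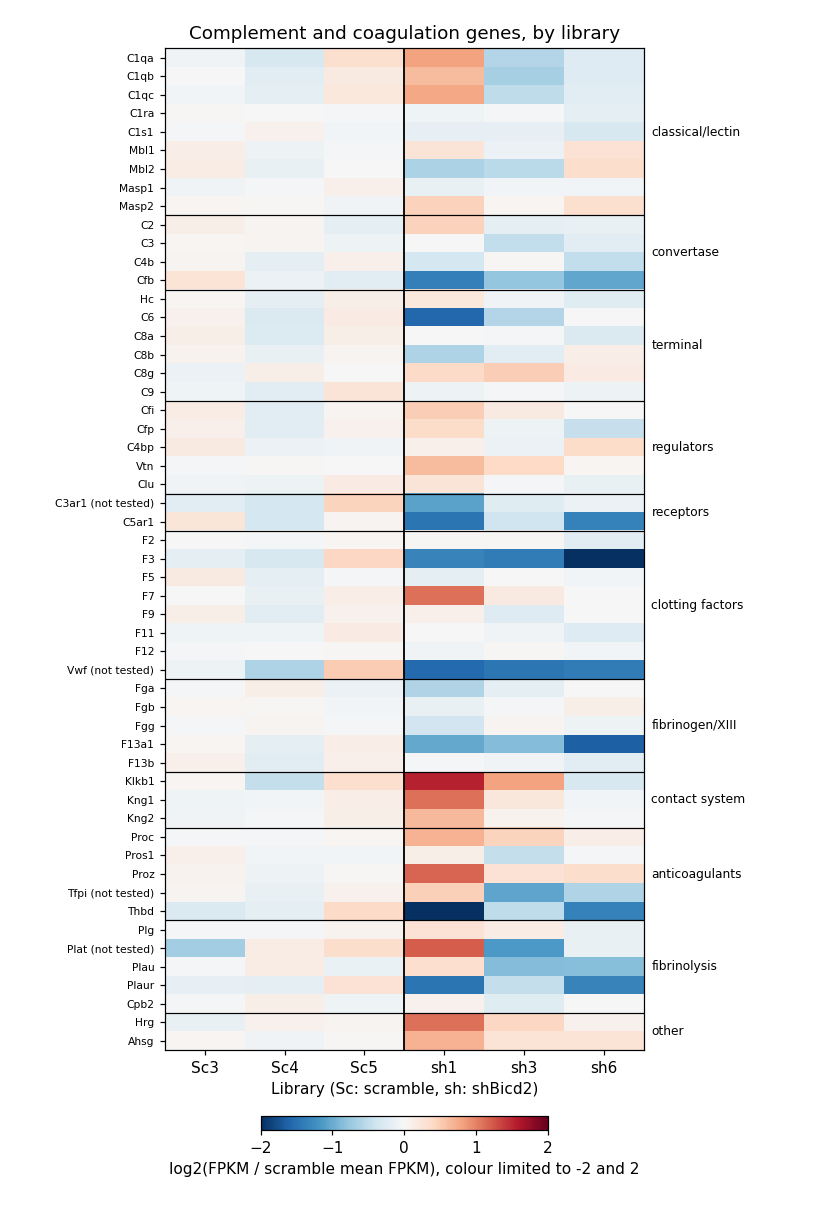
Each row is 1 of the 54 genes, grouped by role, and each column 1 library; colour is log2 of FPKM over the scramble mean, limited to -2 and 2. F3, Thbd, Plaur, C5ar1, F13a1, Vwf and Cfb are blue in all 3 shBicd2 libraries, and sh1 is the highest library for 21 and the lowest for 13 of the 50 tested genes.

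Levels within the list ranged widely. FPKM is scaled to gene length, so levels can be set side by side. The fibrinogen chains were the most abundant members, with means over the 6 libraries of 6432 (Fga), 5137 (Fgg) and 3744 FPKM (Fgb), ranks 8, 13 and 18 of all rows. Ahsg, C3 and Vtn followed at 2728, 2556 and 1886 FPKM. In all, 26 members had a mean of at least 100 FPKM, and 4 (C3ar1, Vwf, Tfpi and Plat) had a mean below 1 FPKM and were not tested. Together the 54 genes held 7.99%, 7.96% and 7.57% of all FPKM in Sc3, Sc4 and Sc5. In the shBicd2 libraries sh1, sh3 and sh6 they held 7.12%, 7.26% and 7.38%. All 3 shBicd2 shares lay below the scramble shares (exact two-sided permutation p = 0.1, the smallest that 3 against 3 can give). The summed FPKM of the 54 genes overlapped, at 28567 to 29762 in scramble and 28657 to 28931 in shBicd2. The total over all genes was the quantity that lay apart, at 365546 to 377559 against 392184 to 405732 FPKM, so the lower share follows from a larger total.

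Sequences upstream of the start site are shown for 4 genes whose groups did not overlap and which stand for both directions: F3, Plaur and F13a1 (lower) and Proz (higher). They are the 250 bases before the start in RefSeq (GRCm38.p6), 5′ to 3′ on the gene's strand. Of the 54 genes, 40 matched the promoter table by symbol. Capitals mark matches, on either strand, to any of 5 motifs: AP-1 (TGANTCA), NF-kB (GGG and CC with any 5 bases between), C/EBP (TTGCNNAA), STAT (TTCNNNGAA) and HNF1 (GTTAAT and ATTAA with any 1 base between). Matches to the NF-kB motif that are shifted by 1 base overlap each other. A match describes letters and not a bound site.
F3 upstream (chr3:121723287-121723536, plus strand): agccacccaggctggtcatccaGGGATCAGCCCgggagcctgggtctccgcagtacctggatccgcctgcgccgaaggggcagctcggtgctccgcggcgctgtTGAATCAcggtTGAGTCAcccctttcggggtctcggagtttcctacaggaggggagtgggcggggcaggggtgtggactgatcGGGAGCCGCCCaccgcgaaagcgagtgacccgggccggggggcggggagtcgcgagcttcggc
Plaur upstream (chr7:24462233-24462482, plus strand): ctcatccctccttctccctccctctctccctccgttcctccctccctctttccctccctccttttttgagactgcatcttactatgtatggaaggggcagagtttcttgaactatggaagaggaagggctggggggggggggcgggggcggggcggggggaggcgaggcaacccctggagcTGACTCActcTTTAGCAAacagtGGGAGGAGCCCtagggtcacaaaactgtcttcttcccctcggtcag
F13a1 upstream (chr13:37050245-37050494, minus strand): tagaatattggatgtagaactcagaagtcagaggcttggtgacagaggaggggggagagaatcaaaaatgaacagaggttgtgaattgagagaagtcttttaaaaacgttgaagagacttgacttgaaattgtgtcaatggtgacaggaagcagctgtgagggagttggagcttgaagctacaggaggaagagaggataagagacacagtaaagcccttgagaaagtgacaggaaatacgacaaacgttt
Proz upstream (chr8:13060658-13060907, plus strand): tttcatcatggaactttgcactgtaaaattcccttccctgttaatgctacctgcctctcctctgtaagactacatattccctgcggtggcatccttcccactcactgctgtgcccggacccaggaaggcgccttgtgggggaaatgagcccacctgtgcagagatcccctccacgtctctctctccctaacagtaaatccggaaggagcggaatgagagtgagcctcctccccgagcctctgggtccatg
F3 held 2 AP-1 matches, at 146 to 140 and 135 to 129 bases before the start, and 4 NF-kB matches that form 2 overlapping pairs (228 to 218 and 63 to 53 bases before the start). Plaur held 1 AP-1 match (69 to 63 bases before the start), 2 overlapping NF-kB matches and 1 C/EBP match (59 to 52 bases before the start). F13a1, shown for the first of its 2 starts in the table, and Proz held none of the 5. In windows not shown, the higher genes Ahsg (C/EBP) and C8g (AP-1, at 1 of 2 starts) and the lower gene C1s1 (C/EBP at 1 start, NF-kB at the other) held matches. Those of C5ar1 and C1ra (lower) and Vtn (higher) held none, so both directions had genes with and without a match. Of 32851 windows of this length in the table, 6.75% held the AP-1 motif, 45.8% the NF-kB motif, 9.56% the C/EBP motif, 7.02% the STAT motif and 0.0609% the HNF1 motif.

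Among the initiators of complement, the C1q chains varied more between libraries than between groups. C1qa, C1qb and C1qc encode the subunits of the recognition molecule of the classical pathway. C1qa was at 22.8, 19.4 and 30.0 in the 3 scramble libraries (Sc3, Sc4, Sc5) against 41.8, 16.1 and 20.1 FPKM in the 3 with shBicd2 (sh1, sh3, sh6). Sh1 was the highest and sh3 the lowest of all 6 libraries for each of the 3 chains, so the groups overlapped. The ratio of C1qc to C1qa was 0.507 to 0.594 over the libraries, so the chains kept near a common proportion. Log2 fold changes were 0.013, -0.078 and 0.033, and without sh1 they were -0.38, -0.43 and -0.32. The summed FPKM of 8 macrophage and Kupffer cell markers was 63.2 to 91.3 in scramble and 35.9 to 68.8 in shBicd2, with sh1 the highest of the shBicd2 libraries. Single markers differed in sh1. Cd5l and Marco were there at 25.0 and 21.5 FPKM, their highest among the shBicd2 libraries. The Kupffer cell marker Clec4f was at 3.81 FPKM in sh1, its lowest of all 6 libraries, against 8.76 to 9.84 FPKM in scramble. The part of these cells in the C1q values was not tested.

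C1ra and C1s1, the proteases that C1q activates, lay slightly lower in every shBicd2 library. C1s1 (chromosome 6 of GRCm38, minus strand, from 124530345 to 124542359) was at 193, 208 and 189 (scramble) against 175, 176 and 157 FPKM (sh1, sh3, sh6). C1ra was at 121, 121 and 117 (scramble) against 112, 116 and 106 FPKM (sh1, sh3, sh6). The shBicd2 values of both genes lay below all scramble values, by small steps. After rescaling by median-of-ratios size factors, sh3 no longer did so for either gene. The log2 fold changes were -0.22 with an SE of 0.14 (adjusted p = 0.498, limma) for C1s1 and -0.10 with an SE of 0.14 (adjusted p = 0.748, limma) for C1ra. Both genes have close copies (C1s2 and C1rb, at or below 0.436 FPKM), so the assignment of their reads is uncertain. Exons of C1s1, Hc, Ahsg, F13a1, F5, Fgg, Masp2, C2 and Plg also overlap a gene on the other strand, and the strand setting of the counting is not known. Of the mannose-binding lectins, Mbl2 was the most abundant initiator, at 246, 199.9 and 221 (scramble) against 144, 154 and 285 FPKM (sh1, sh3, sh6), so sh1 and sh3 lay below and sh6 above the scramble range. Its log2 fold change was -0.26, and ran from -0.57 (without sh6) to -0.081 (without sh1). That of Mbl1 was 0.14, from 0.074 (without sh6) to 0.27 (without sh3). Of the lectin-associated proteases, Masp2 had the smallest p of the initiators and was at 27.3, 27.1 and 25.2 (scramble) against 36.6, 27.2 and 33.3 FPKM (sh1, sh3, sh6). Its value in sh3 lay within the scramble range, and its log2 fold change was 0.27 with an SE of 0.16 (adjusted p = 0.462, limma). Masp1 stayed between 16.1 and 19.0 FPKM in all libraries.

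Of the convertase components, Cfb was the one whose groups were apart. Factor B is the protease of the alternative pathway convertase and is induced in inflamed liver. Cfb (chromosome 17 of GRCm38, minus strand, from 34856374 to 34862518) was at 12.4, 9.44 and 8.85 in the 3 scramble libraries (Sc3, Sc4, Sc5) against 3.97, 5.96 and 4.96 FPKM in the 3 with shBicd2 (sh1, sh3, sh6). The highest shBicd2 value lay below the lowest scramble value. The means were 10.2 ± 1.89 (scramble) against 4.96 ± 0.996 FPKM (shBicd2), with SDs over n = 3, a log2 fold change of -0.91 with an SE of 0.19 (adjusted p = 0.166, limma). Without sh3 it was -1.03 and past the threshold (adjusted p = 0.0476; 0.00250 to 0.610 over the alternatives). Between 205 and 622 reads stood behind each value. In GENCODE M21 the exons of Cfb and C2 overlap those of Gm20547, a gene on the same strand, so reads there may have been left uncounted for both and their absolute levels are uncertain. C2, which supplies the protease of the classical convertase, was at 8.65 to 13.6 FPKM with overlapping groups (log2 fold change 0.045).

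C3, on which all 3 pathways converge, was at 2820, 2865 and 2579 (scramble) against 2768, 1951 and 2354 FPKM (sh1, sh3, sh6). Sh3 and sh6 lay below the scramble range and sh1 within it, giving a log2 fold change of -0.24 with an SE of 0.17 (adjusted p = 0.525, limma). It was -0.11 without sh3 and -0.36 without sh1. C4b was at 427, 361 and 442 (scramble) against 320.4, 415 and 290.5 FPKM (sh1, sh3, sh6), with sh1 and sh6 below the scramble range and sh3 within it. Its log2 fold change was -0.27 with an SE of 0.19 (adjusted p = 0.515, limma), -0.16 without sh6 and -0.42 without sh3. Its neighbour and close copy C4a, outside the list, was at 15.5, 19.8 and 16.0 (scramble) against 16.9, 29.6 and 34.0 FPKM (sh1, sh3, sh6). Reads shared by such close copies may have been split or left out, which was not tested.

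The terminal pathway genes encode the pore-forming proteins. C8g was the 1 member of the pathway whose groups were apart, at 73.6, 86.0 and 78.8 (scramble) against 103, 111 and 89.5 FPKM (sh1, sh3, sh6). All shBicd2 values lay above scramble, with sh6 only just so, and the log2 fold change was 0.34 with an SE of 0.16 (adjusted p = 0.352, limma). The partner chains of the same C8 protein had overlapping groups, with log2 fold changes of -0.097 for C8a and -0.23 for C8b. C6, which joins C5b early in pore assembly, was at 107, 82.6 and 113 (scramble) against 34.0, 67.3 and 101 FPKM (sh1, sh3, sh6). Sh1 lay far below scramble, sh3 below it and sh6 within it, and the log2 fold change of -0.69 with an SE of 0.38 (adjusted p = 0.415, limma) was -0.27 without sh1. C9, the most abundant of the pathway and the subunit that forms the ring, was at 227, 209 and 289.7 (scramble) against 225, 239 and 225 FPKM (sh1, sh3, sh6), with a log2 fold change of -0.064. Hc, which encodes C5, had overlapping groups too (log2 fold change -0.028).

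Of the 5 complement regulators, 4 had positive fold changes, and Vtn was the 1 with groups apart. Vtn (chromosome 11 of GRCm38, plus strand, from 78499091 to 78502324) encodes vitronectin, which blocks insertion of the terminal complex. It was at 1606, 1677 and 1648 (scramble) against 2536, 2172 and 1679 FPKM (sh1, sh3, sh6). The groups were apart, but sh6 exceeded the highest scramble value by less than 3 FPKM. The log2 fold change was 0.35 with an SE of 0.18 (adjusted p = 0.390, limma), and 0.22 without sh1. Clusterin (Clu), another inhibitor of the terminal complex, was at 646, 626 and 755 (scramble) against 811, 666 and 608 FPKM (sh1, sh3, sh6), with overlapping groups and a log2 fold change (0.035) that turned negative on the TPM scale (-0.06). Cfi, the protease that cleaves C3b and C4b, had a log2 fold change of 0.23, C4bp, its cofactor, of 0.12, and Cfp, which stabilises the alternative convertase, of -0.047. For these 4 genes the groups overlapped.

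The receptor for C5a, on myeloid cells, lay lower with shBicd2. C5ar1 (chromosome 7 of GRCm38, minus strand, from 16246743 to 16259540) was at 5.45, 3.60 and 4.81 in the 3 scramble libraries (Sc3, Sc4, Sc5) against 1.68, 3.49 and 1.81 FPKM in the 3 with shBicd2 (sh1, sh3, sh6). The gap between the groups was narrow, since sh3 lay just under Sc4, whereas sh1 and sh6 were clearly lower. Rescaling by median-of-ratios size factors closed that gap, and the groups then overlapped. The means were 4.62 ± 0.936 (scramble) against 2.33 ± 1.008 FPKM (shBicd2), with SDs over n = 3, a log2 fold change of -0.78 with an SE of 0.24 (adjusted p = 0.207, limma) from 79 to 249 reads. Without sh3 the value was -1.02 (adjusted p = 0.0435, past the threshold; 0.00307 to 0.613 over the alternatives). The C3a receptor gene C3ar1 was at 0.522, 0.479 and 0.840 (scramble) against 0.292, 0.517 and 0.564 FPKM (sh1, sh3, sh6), from 23 to 58 reads, and was not tested. Of the 8 markers of recruited monocytes and neutrophils, 6 had a lower mean in shBicd2, and their sum was 371 to 487 FPKM in scramble and 164 to 512 FPKM in shBicd2. S100a9, S100a8 and Lyz2 made up most of that sum. The neutrophil markers Ly6g and Csf3r lay lower in all 3 shBicd2 libraries, as C5ar1 did. Their log2 fold changes were -0.73 and -0.58 (limma adjusted p = 0.152 and 0.212). The groups overlapped for the other markers of the 8, and Lyz2 and Ms4a4c had positive log2 fold changes, 0.15 and 0.18. Lyz2, Ms4a4c, Ly6c2 and Ccr2 were highest in sh1, the library where C5ar1 was lowest. The part of these cells in the C5ar1 difference was not tested.

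**Figure D2:**
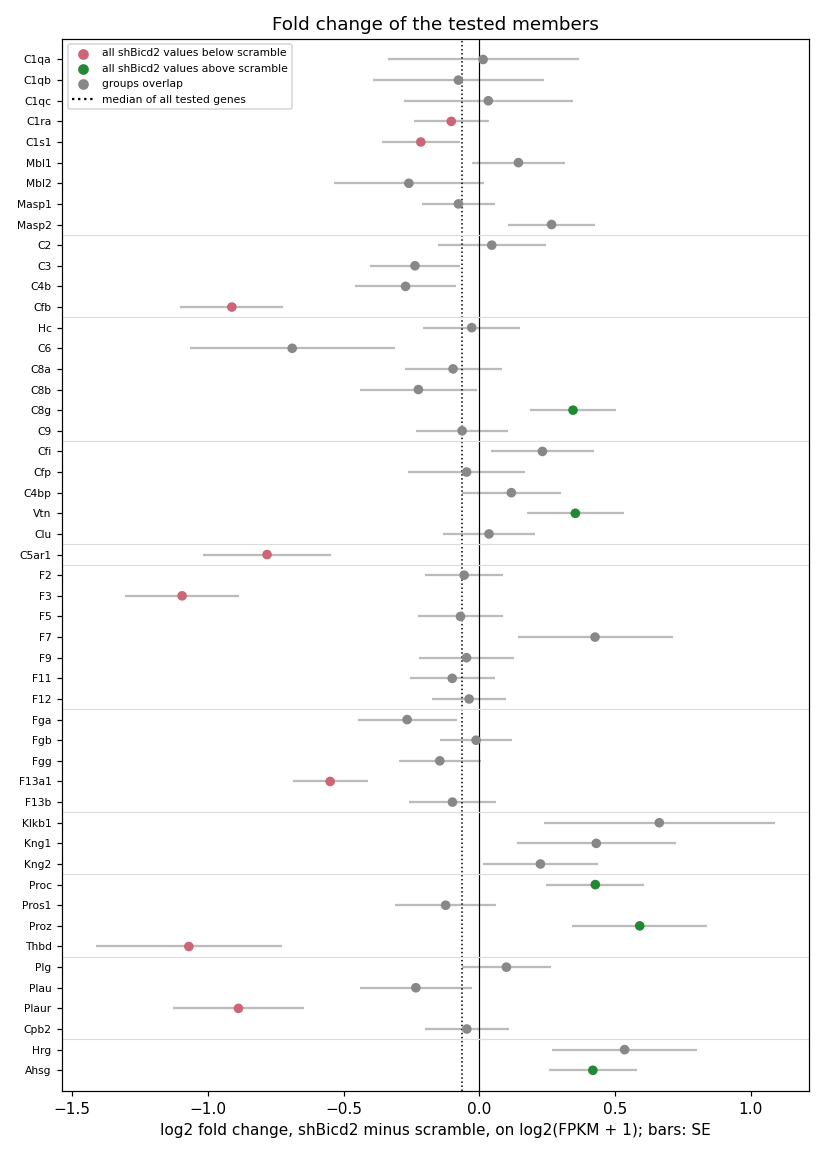
Points are limma log2 fold changes (shBicd2 minus scramble, x axis) of the 50 tested genes by role, with bars of 1 SE; colour shows whether the 3 values of one group all lie on one side of the other, and the dotted line is the median of all tested genes. F3 and Thbd lie lowest, at -1.10 and -1.07, and most plasma factors lie near 0.

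Tissue factor had the lowest p of all members. F3 (chromosome 3 of GRCm38, plus strand, from 121723537 to 121735048) encodes the receptor of factor VII that starts clotting, and it is induced in monocytes and endothelium by inflammation. It was at 3.49, 3.20 and 5.33 in the 3 scramble libraries (Sc3, Sc4, Sc5) against 1.58, 1.52 and 0.878 FPKM in the 3 with shBicd2 (sh1, sh3, sh6). The highest shBicd2 value was less than the lowest scramble value by a wide gap. The means were 4.01 ± 1.16 (scramble) against 1.33 ± 0.391 FPKM (shBicd2), with SDs over n = 3, so shBicd2 stood at 0.331 of scramble. The log2 fold change was -1.10 with an SE of 0.21 (adjusted p = 0.152, limma), and with a pseudocount of 0.01 in place of 1 it was -1.60. It was -1.18 without sh1, -1.16 without sh3 and -0.95 without sh6, and its adjusted p ran from 0.00186 to 0.610 over the alternatives. These values rest on 42 to 216 reads per library.

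For the clotting factors that hepatocytes secrete, the groups overlapped. Prothrombin (F2), the most abundant of them, was at 360.1, 356 and 372 (scramble) against 368, 367 and 314 FPKM (sh1, sh3, sh6), and sh6 was the 1 library outside the scramble range among the shBicd2 libraries. Its log2 fold change was -0.056 with an SE of 0.14 (adjusted p = 0.876, limma). F5, F9, F11 and F12 had log2 fold changes of -0.07, -0.048, -0.10 and -0.038, all with overlapping groups. F12, which starts the contact pathway, kept within 214 to 230 FPKM. F7, the partner of tissue factor, was at 34.6, 31.3 and 37.6 (scramble) against 73.8, 39.3 and 34.8 FPKM (sh1, sh3, sh6). Only sh1 was far above scramble, and the log2 fold change of 0.43 was 0.099 without sh1. Vwf, which tethers platelets and carries factor VIII, lies on chromosome 6 (125546774 to 125686679) and was at 0.507, 0.354 and 0.769 (scramble) against 0.184, 0.199 and 0.207 FPKM (sh1, sh3, sh6). The shBicd2 values were close together and all below scramble. At these levels, from 53 to 198 reads, the gene was not tested in the fit (exact two-sided permutation p = 0.1, the smallest possible). Any gene with groups apart has that p, so it only restates the separation.

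**Figure D3:**
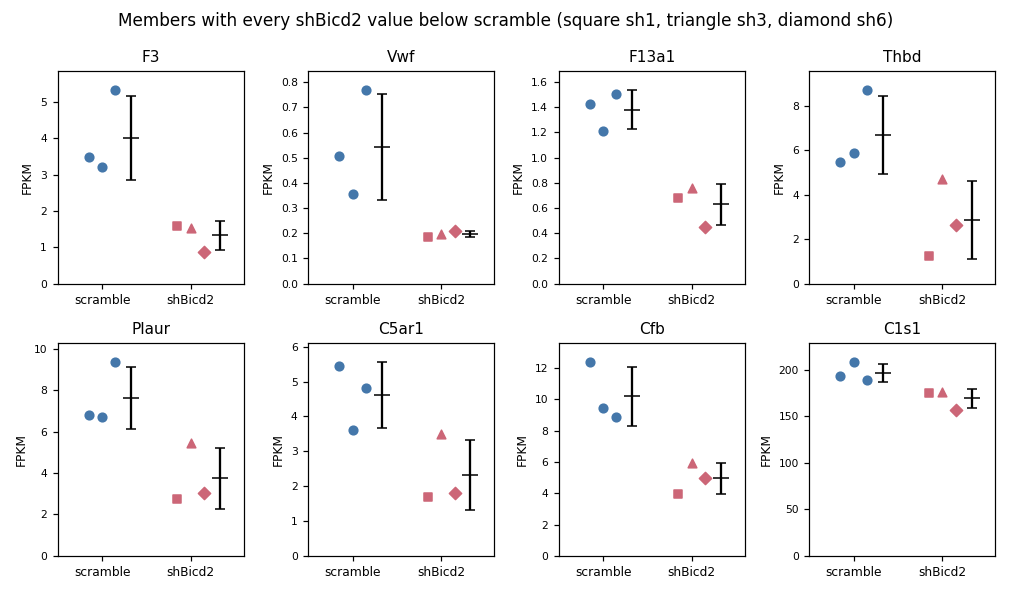
FPKM (y axis, from 0) of 8 genes in the 3 scramble and 3 shBicd2 libraries, with the mean and SD beside the points. In each panel all shBicd2 points lie below the scramble points. Sh3 (triangle) is the nearest to scramble for Thbd, Plaur, C5ar1, Cfb, F13a1 and, by a small step, C1s1.

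Fibrinogen is built from 3 chains encoded side by side on chromosome 3, all strongly expressed by hepatocytes. Fga was at 6907, 7605 and 6444 (scramble) against 4591, 6083 and 6962 FPKM (sh1, sh3, sh6). Fgb was at 3847, 3806 and 3615 (scramble) against 3396, 3713 and 4090.3 FPKM (sh1, sh3, sh6), and Fgg at 5277, 5588 and 5270.5 (scramble) against 4114, 5563 and 5010.4 FPKM (sh1, sh3, sh6). Sh1 was the lowest of the 6 libraries for each chain, and the groups overlapped for all 3. The log2 fold changes were -0.27 with an SE of 0.18 (adjusted p = 0.513, limma), -0.012 with an SE of 0.13 (adjusted p = 0.975, limma) and -0.15 with an SE of 0.15 (adjusted p = 0.674, limma) for Fga, Fgb and Fgg. Without sh1 they were -0.099, 0.054 and -0.026. Within a library, where scaling cancels, the ratio of Fga to Fgb was 1.80, 1.998 and 1.78 in scramble. In sh1, sh3 and sh6 it was 1.35, 1.64 and 1.70. This ratio was lower in each shBicd2 library than in any scramble library (exact two-sided permutation p = 0.1, the smallest possible), and the ratio of Fgg to Fgb overlapped (p = 0.4, exact permutation).

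Of the chains of factor XIII, the enzyme that crosslinks fibrin, F13a1 had groups apart and F13b did not. F13a1 (chromosome 13 of GRCm38, minus strand, from 36867178 to 37050244), the catalytic chain made by macrophages and platelets, was at 1.43, 1.21 and 1.51 (scramble) against 0.682, 0.759 and 0.447 FPKM (sh1, sh3, sh6). All shBicd2 values lay below scramble. The log2 fold change was -0.55 with an SE of 0.14 (adjusted p = 0.184, limma) with a pseudocount of 1, which compresses low values, and -1.15 with 0.01, from 57 to 171 reads. The gene passed the filter on low values through its scramble level, and leaving out any 1 scramble library took it below the filter, so its presence among the tested genes is not independent of the difference. F13b, the carrier chain made by hepatocytes, was at 46.5, 37.0 and 46.4 (scramble) against 42.2, 41.0 and 37.3 FPKM (sh1, sh3, sh6), with a log2 fold change of -0.1. Summed FPKM of the 4 platelet markers found was 3.74 to 5.43 in scramble and 3.45 to 7.66 in shBicd2, so it overlapped, and 1 of the 4 had a lower mean in shBicd2. Of the 8 macrophage and Kupffer cell markers, 7 had a lower mean in shBicd2, and their summed levels, given with C1q, overlapped. Adgre1 and Cd68 lay lower in all 3 shBicd2 libraries, with log2 fold changes of -0.63 and -0.88 (limma adjusted p = 0.217 and 0.231). The part of macrophage or platelet RNA in the F13a1, F3 and Plaur values was not tested.

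Of the contact system genes, Kng1, Kng2 and Klkb1 had positive fold changes that came mainly from sh1. F12 and F11, grouped with the clotting factors above, had log2 fold changes of -0.038 and -0.10. Kng1, which encodes the bradykinin precursor kininogen, was at 566, 579 and 656 (scramble) against 1288, 706 and 579.5 FPKM (sh1, sh3, sh6). Kng2, a close copy with which reads may be shared, was at 104, 107 and 119 (scramble) against 172, 115 and 107 FPKM (sh1, sh3, sh6). Plasma prekallikrein (Klkb1), the protease that frees bradykinin, was at 9.54, 6.70 and 11.7 (scramble) against 27.0, 16.3 and 7.48 FPKM (sh1, sh3, sh6). For all 3, sh1 was the highest library and sh6 lay inside the scramble range. Log2 fold changes were 0.43 with an SE of 0.29 (adjusted p = 0.512, limma) for Kng1, 0.22 with an SE of 0.21 (adjusted p = 0.640, limma) for Kng2 and 0.66 with an SE of 0.42 (adjusted p = 0.485, limma) for Klkb1. Without sh1 they were 0.094, 0.015 and 0.26. The exons of Klkb1 overlap those of Gm45753 on the same strand, which makes its absolute level uncertain.

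Genes of the protein C pathway lay in both directions, the plasma zymogen higher and its endothelial activators lower. Proc, the zymogen made by hepatocytes, was at 104, 103 and 107 in the 3 scramble libraries (Sc3, Sc4, Sc5) against 170.3, 143 and 115 FPKM in the 3 with shBicd2 (sh1, sh3, sh6). Every shBicd2 value lay above scramble, and the means were 105 ± 2.27 (scramble) against 143 ± 27.4 FPKM (shBicd2), with SDs over n = 3. The log2 fold change was 0.43 with an SE of 0.18 (adjusted p = 0.316, limma), and 0.29 without sh1. Thbd (chromosome 2 of GRCm38, minus strand, from 148404466 to 148408188) encodes thrombomodulin, the receptor on which thrombin activates protein C. Thbd was at 5.47, 5.89 and 8.71 in the 3 scramble libraries (Sc3, Sc4, Sc5) against 1.25, 4.72 and 2.63 FPKM in the 3 with shBicd2 (sh1, sh3, sh6), so every shBicd2 value lay below scramble, sh1 by far the most. Once libraries were rescaled by median-of-ratios size factors, sh3 no longer lay below every scramble library. The log2 fold change of Thbd was -1.07 with an SE of 0.34 (adjusted p = 0.222, limma), from 85 to 520 reads. It was -0.73 without sh1 and -1.40 without sh3. Procr, which encodes the endothelial protein C receptor and is outside the list, was at 10.6, 11.7 and 12.6 (scramble) against 2.10, 5.81 and 3.64 FPKM (sh1, sh3, sh6), again without overlap. Its log2 fold change was -1.45 with an SE of 0.28 (adjusted p = 0.152, limma). Protein S (Pros1), the cofactor of activated protein C, had a log2 fold change of -0.12 with overlapping groups.

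Among the other anticoagulants, Proz encodes protein Z, the cofactor of an inhibitor of factor X. Proz (chromosome 8 of GRCm38, plus strand, from 13060914 to 13076026) was at 38.6, 34.0 and 37.3 (scramble) against 82.1, 44.5 and 46.9 FPKM (sh1, sh3, sh6). All shBicd2 values exceeded scramble, with sh1 far above the rest. The log2 fold change was 0.59 with an SE of 0.25 (adjusted p = 0.316, limma), and 0.31 without sh1. Tfpi, the inhibitor of the tissue factor complex, was at 0.967, 0.847 and 0.993 (scramble) against 1.30, 0.452 and 0.619 FPKM (sh1, sh3, sh6), from 41 to 130 reads, and was not tested. Its groups overlapped. The endothelial markers Pecam1, Cdh5 and Lyve1 also lay lower in all 3 shBicd2 libraries (log2 fold changes -0.52, -0.83 and -1.15, limma adjusted p = 0.204, 0.153 and 0.229). The summed FPKM of the 8 endothelial markers was 27.3 to 36.2 in scramble and 18.9 to 25.6 in shBicd2, without overlap, and these 3 were the ones of the 8 with a lower mean. Stab1 and Stab2, scavenger receptors of sinusoidal endothelium, had log2 fold changes of 0.049 and 0.045. The part of endothelial RNA in the Thbd, Procr and Vwf values was not tested.

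**Figure D4:**
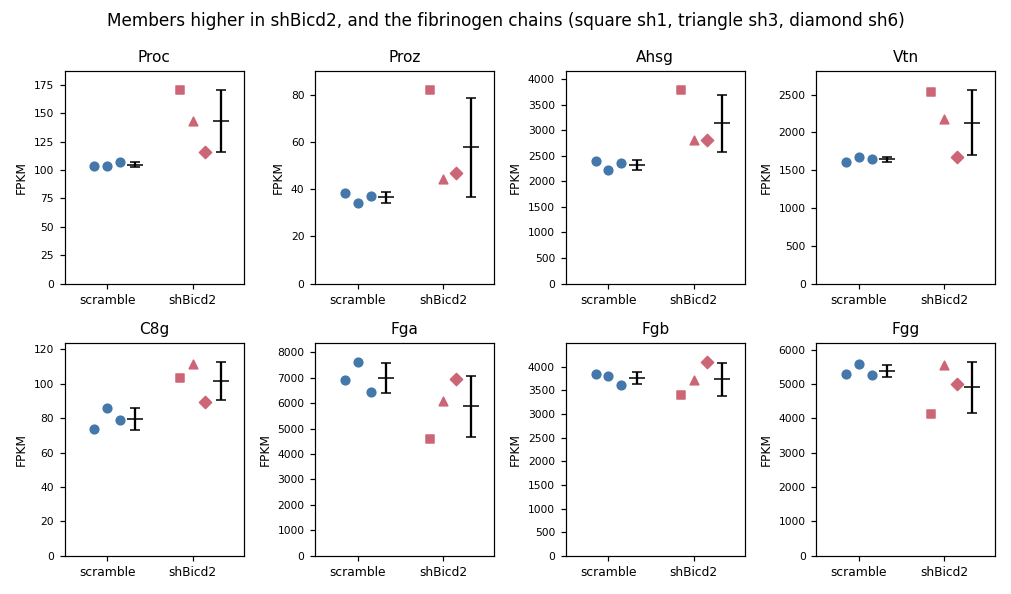
FPKM (y axis, from 0) of the 5 genes whose shBicd2 values all lie above scramble and of the 3 fibrinogen chains, with the mean and SD beside the points. Sh1 (square) is the highest library for Proc, Proz, Ahsg and Vtn and the lowest for each fibrinogen chain.

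Of the fibrinolysis genes, only Plaur had groups apart among those tested. It encodes the receptor that holds urokinase on the surface of myeloid and other cells. Plaur (chromosome 7 of GRCm38, plus strand, from 24462484 to 24475968) was at 6.79, 6.69 and 9.34 in the 3 scramble libraries (Sc3, Sc4, Sc5) against 2.76, 5.45 and 3.03 FPKM in the 3 with shBicd2 (sh1, sh3, sh6). Sh1 and sh6 were low, and sh3 lay between them and scramble. The means were 7.61 ± 1.504 (scramble) against 3.75 ± 1.48 FPKM (shBicd2), with SDs over n = 3, a log2 fold change of -0.89 with an SE of 0.24 (adjusted p = 0.198, limma) from 132 to 392 reads. Without sh3 the value was -1.13 (adjusted p = 0.0387, past the threshold; 0.00281 to 0.610 over the alternatives). Urokinase itself (Plau) was at 1.52, 1.70 and 1.40 (scramble) against 1.94, 0.839 and 0.848 FPKM (sh1, sh3, sh6): sh3 and sh6 lay below scramble and sh1 above it. Its log2 fold change was -0.23, and -0.46 without sh1. Tissue plasminogen activator (Plat) was at 0.144, 0.259 and 0.300 (scramble) against 0.544, 0.106 and 0.212 FPKM (sh1, sh3, sh6), from 11 to 62 reads, and was not tested.

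Plasminogen (Plg), the zymogen of plasmin, had overlapping groups. It was at 488, 488 and 526 (scramble) against 611, 555 and 454 FPKM (sh1, sh3, sh6), a log2 fold change of 0.099 with an SE of 0.16 (adjusted p = 0.797, limma). Cpb2, the most abundant fibrinolysis gene, encodes a carboxypeptidase that protects fibrin from plasmin, and it was at 543, 601 and 521 (scramble) against 586, 469 and 560.3 FPKM (sh1, sh3, sh6) (log2 fold change -0.047). Its groups overlapped too.

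The remaining plasma glycoproteins had positive fold changes, with sh1 the highest library. Ahsg (chromosome 16 of GRCm38, plus strand, from 22891277 to 22899449), fetuin A, is an abundant hepatocyte protein known to fall in the acute phase. It was at 2395, 2211 and 2364 in the 3 scramble libraries (Sc3, Sc4, Sc5) against 3781, 2806 and 2813 FPKM in the 3 with shBicd2 (sh1, sh3, sh6). The groups were apart, with means of 2323 ± 98.4 (scramble) against 3133 ± 561 FPKM (shBicd2), with SDs over n = 3 and a log2 fold change of 0.42 with an SE of 0.16 (adjusted p = 0.285, limma). Quantile normalization, which forces all libraries to the same distribution, lowered it to 0.10. Hrg, a glycoprotein that binds heparin and plasminogen, was at 219.8, 258 and 251 (scramble) against 524, 323 and 258 FPKM (sh1, sh3, sh6). Sh6 lay inside the scramble range and sh1 at more than any other library, and the log2 fold change of 0.53 with an SE of 0.27 (adjusted p = 0.386, limma) was 0.25 without sh1. Of the 7 hepatocyte markers found, 4 had positive fold changes, Apoa1 (0.57) and Ttr (0.51) without overlap, and none passed. The summed FPKM of these markers was 21650.3 to 27554 in scramble and 27662 to 35169 in shBicd2, so the nearest sums lay close together. Alb made up most of that sum, and its own groups overlapped (log2 fold change 0.36, limma adjusted p = 0.397). Apob, Cps1 and Hnf4a had negative log2 fold changes, at -0.35, -0.063 and -0.093.

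Further genes of both systems, 53 named from textbook knowledge, gave 49 in the table and 36 tested. Limma passed 0 of them at an adjusted p of 0.05, and at an unadjusted p below 0.05 there were 5, all lower in shBicd2. These 5 are 13.9% of the 36, against 15.7% of all tested genes. Groups did not overlap for 7, or 19.4%, against 24.4%, and 6 of them lay lower. Neither share is above that of all genes, so the counts are no result about these genes. Among complement regulators and receptors, Itgam and Itgb2, the chains of complement receptor 3, had log2 fold changes of -0.73 with an SE of 0.21 (adjusted p = 0.199, limma) and -0.71 with an SE of 0.20 (adjusted p = 0.199, limma). Cd93, a lectin-like receptor of endothelium and myeloid cells, had -0.88 with an SE of 0.26 (adjusted p = 0.200, limma).

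Of the other complement components tested, 0 of 5 had groups apart, and C4a had the smallest p, with a log2 fold change of 0.57 with an SE of 0.27 (adjusted p = 0.357, limma). The 6 tested genes of clotting factors and their processing also overlapped, 5 of them with positive fold changes, and Lman1, a cargo receptor for factors V and VIII, had the smallest p, with a log2 fold change of 0.29 with an SE of 0.17 (adjusted p = 0.449, limma). Antithrombin (Serpinc1) lay higher in every shBicd2 library, at 146, 137 and 151 (scramble) against 236, 177 and 153 FPKM (sh1, sh3, sh6), a log2 fold change of 0.36 with an SE of 0.19 (adjusted p = 0.409, limma). Anxa2, which forms a plasminogen receptor on cell surfaces with S100a10, was at 23.7, 19.7 and 31.3 (scramble) against 10.3, 10.6 and 9.93 FPKM (sh1, sh3, sh6). Its groups lay far apart, with a log2 fold change of -1.17 with an SE of 0.19 (adjusted p = 0.152, limma). That of S100a10 was -0.24, with overlap. Pzp, a broad protease inhibitor of plasma, had -0.20 with an SE of 0.13 (adjusted p = 0.498, limma) without overlap.

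The members with groups apart fell on different sides by level. With a split at a mean of 20 FPKM, chosen after the values were seen, 38 tested members lay above and 12 below. In the abundant set, 7 members had groups apart, 5 of them higher and 2 lower in shBicd2. In the low set, 6 of 12 had groups apart, all lower. F13a1 is among these, and it passed the filter on low values through its scramble level, so its place in the count is not independent of the difference. Over all genes tested, 12.4% of those above the split and 19.9% of those below it lay lower without overlap. The corresponding shares that lay higher were 13.5% and 4.15%. The 5 higher members of the 38 are 13.2%, near that of all abundant genes. Median log2 fold changes were -0.04 for the abundant and -0.39 for the low members, against 0.02 and -0.08 over all genes on each side of the split. The split is a description, and no test was made of it.

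**Figure D5:**
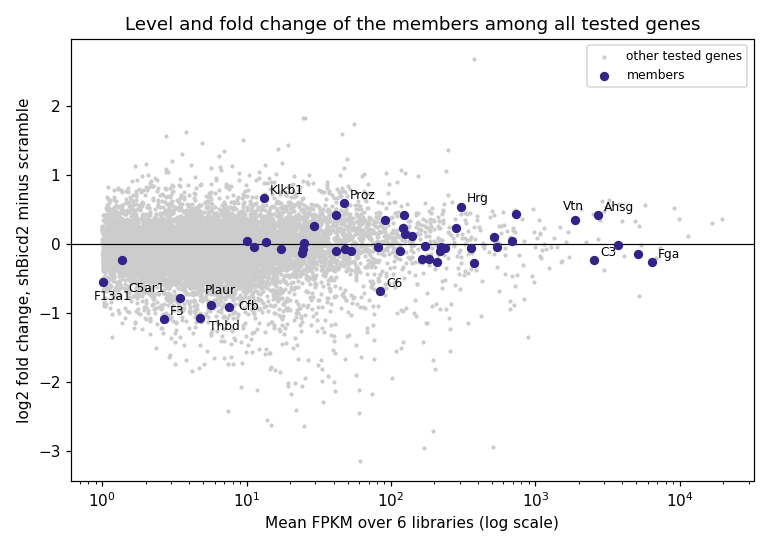
Mean FPKM over the 6 libraries (x axis, log scale) against the log2 fold change (y axis) for the 50 tested members and all other tested genes. The 7 tested members below 10 FPKM all lie below 0, while the 26 above 100 FPKM lie between -0.27 and 0.53. F13a1, among the low ones, passed the filter through its scramble level.

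The shBicd2 libraries varied more than the scramble libraries for most members. The median coefficient of variation was 10.02% in scramble and 19.1% in shBicd2 over the 50 tested members, against 11.5% and 23.6% over all tested genes. Sh1 was the highest of the 6 libraries for 21 members and the lowest for 13. The count past the adjusted threshold was 0 without sh1 and 3 without sh3 (Cfb, C5ar1 and Plaur), where 2.84% of all tested genes (291) were called. Limma's array weights, which gave sh1 and sh3 weights of 0.18 and 0.28 against 4.67 for sh6, called 10 members, all lower in shBicd2: F3, Cfb, F13a1, Plaur, C5ar1, Thbd, Plau, C4b, C1s1 and Cfp. They called 2709 of all tested genes, or 26.7%, a larger share than the members' 10 of 50.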

How the data were processed

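Liver RNA was profiled in 3 scramble and 3 shBicd2 libraries (Trizol RNA, TruSeq RNA kit, Illumina NovaSeq, per the labels' protocols). HISAT2 2.0.5, featureCounts 1.5.0-p3 and mm10 are named in the submitters' processing notes, and their annotation, strand setting and treatment of multiply mapped reads were not given in the sources read. The authors deposited FPKM, reads scaled to gene length and library total, with 1 column per library and 14669 rows. Column names give the group but no labelled replicate number, so columns served as unnumbered replicates. With exon lengths from GENCODE M21 (GRCm38), 98.1% of 14339 matched genes came out as whole reads (within 0.02) in all 6 libraries, which gave depths and reads per gene. FPKM share a library total, so a few abundant genes can shift the rest.

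The 10152 genes averaging 1 FPKM or more were compared on log2(FPKM + 1) by lmFit and trended eBayes of limma 3.58.1 (R 4.3.3), two-sided, with Benjamini-Hochberg adjustment over all tested genes and a threshold of 0.05. Fold changes are shBicd2 minus scramble on that scale, which understates changes of low genes. Single values were compared by exact permutation. Alternatives were pseudocounts of 0.1 and 0.01, other filters, rescaling to TPM, by median-of-ratios or by quantiles, untrended eBayes, array weights, voom on the recovered reads, and leaving out each library. The fit was tested on simulated data. Promoter sequences were taken from RefSeq (GRCm38.p6).

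The members, roles, pathway and marker lists were chosen with earlier results of these data known. Every member found was named; values in every library were given where groups did not overlap and for the most abundant member and the member of smallest p of each role. Beyond the members, genes of each pathway list were named where groups did not overlap (up to 4) or, failing that, by the smallest p. Values in every library of further genes, among them C1qa, C4b, Clu, F7, Fgb, Fgg, Kng2, Plau and Hrg, were added after they were seen, as were single marker genes. T cell and erythroid markers were also summed: 1.17 to 1.26 and 55.0 to 68.9 FPKM in scramble, and 1.08 to 2.20 and 28.6 to 67.4 FPKM in shBicd2. Stellate cell markers summed to 36.2 to 45.6 and 25.3 to 29.2 FPKM, without overlap (Dcn and Col3a1 lay lower in all 3 shBicd2 libraries).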

Additional observations from a re-analysis of the deposited data

How the results depend on the processing

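The count of 0 members past the adjusted threshold held under every alternative run except 2: it was 10 with array weights and 3 without sh3. Over all genes, array weights called 2709 and leaving out 1 library 0 to 291 (291 without sh3). Members at an unadjusted p below 0.05 numbered 15 with array weights, 4 with a mean of at least 5 FPKM, and 4 to 15 on leaving out 1 library. Members with groups apart numbered 14 to 23 on leaving out 1 library, fewer samples being easier to separate. Against 13 in the main fit, they numbered 11 with size factors, 12 after quantile normalization and 16 on the TPM scale. With a mean of at least 5 FPKM there were 9. For these counts, and for those at an unadjusted p, no share over all tested genes is given under the same alternative. They are therefore no result about the members. Whether some members have groups apart therefore depends on the scaling. The median log2 fold change of all genes was -0.16 on the TPM scale, 0.0064 with size factors and 0.019 after quantile normalization, and that of the members -0.15, 0.034 and -0.059.

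None of the 13 tested members with groups apart changed sign in any alternative run. For such members other pseudocounts, filters, weights or a left-out library cannot change the sign. Only rescaling the libraries or voom could have done so, and the other runs say nothing about it. Of 792 values of members under alternatives, 55 in 22 members reversed, the largest at 0.38 in size and with adjusted p-values of at least 0.323, and the cause was not tested. Log2 fold changes that reversed with array weights were C1qa -0.19, C1qc -0.15, Mbl2 0.23, C2 -0.15, C8b 0.066, Cfi -0.023, Clu -0.10, Fgb 0.094, Klkb1 -0.15, Plg -0.096 and Cpb2 0.013. On the TPM scale they were C1qa -0.082, C1qc -0.062, C2 -0.045 and Clu -0.060. With size factors they were C1qb 0.0078, Masp1 0.0079, Hc 0.061, C9 0.026, Cfp 0.035, F2 0.034, F5 0.018, F9 0.041, F12 0.052, Fgb 0.078 and Cpb2 0.043, and after quantile normalization Cfp 0.059 and F2 0.011. Leaving out 1 library gave ranges of -0.38 to 0.29 for C1qa, -0.43 to 0.19 for C1qb, -0.32 to 0.28 for C1qc and -0.15 to 0.15 for C2. The range was -0.15 to 0.076 for Hc, -0.16 to 0.072 for C9, -0.25 to 0.13 for Cfp, -0.0077 to 0.24 for C4bp and -0.081 to 0.13 for Clu. It was -0.095 to 0.019 for F2, -0.15 to 0.025 for F5, -0.15 to 0.053 for F9, -0.081 to 0.054 for Fgb, -0.25 to 0.042 for Pros1 and -0.11 to 0.049 for Cpb2.

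With 3 libraries a group, an exact permutation test cannot go below p = 0.1, and genes below 1 FPKM rest on few reads. Bicd2 had a mean below 5 FPKM and no value under that filter. No paired analysis was possible because the table's columns carry no replicate number of the labels.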
